A study of Mus musculus with 6 samples.

Results

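The 10 genes described here encode secreted growth and angiogenic factors that macrophages can supply to neighboring cells. They were chosen by symbol from the 24786 genes of the expression table, and each of the 10 has a row in it. *Vegfa*, *Vegfb* and *Vegfc* encode ligands of the VEGF receptors, *Pdgfa* and *Pdgfb* the chains of platelet-derived growth factor, *Hbegf*, *Areg* and *Ereg* ligands of the EGF receptor family, and *Tgfb1* and *Inhba* ligands of the TGF-β superfamily. To ask which genes respond to reduced *Etv5*, the study sequenced polyA RNA of Raw264.7 cells, a mouse macrophage line from an Abelson murine leukemia virus-induced tumor. Lentivirus delivered either a control shRNA to the cells (sh-NC, 3 libraries) or one that targets *Etv5* (sh-*Etv5*, 3 libraries), and no other treatment is listed for either group. The labels list the strain C57BL/6 and an age of postnatal day 21 for both groups, say that expression was read 24 or 48 h after infection, and name the reagent Lipofectamine for both. The paper's results call the sequenced cells stably transfected, so the time from infection to sequencing is not settled by these sources. The study's methods add puromycin selection of infected cells during passage. They do not say which shRNA the sequenced cells carried, so effects of the shRNA itself and of less *Etv5* cannot be told apart. Whether replicate libraries are separate infections is not given, so p-values measure the spread between these libraries, which may be technical.

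As background, VEGF-A is the main driver of blood vessel growth and VEGF-C of lymphatic vessel growth, and both act on receptor tyrosine kinases of endothelial cells. PDGF chains pair to AA, AB or BB dimers that recruit fibroblasts and the mural cells around vessels. The EGF receptor ligands are made as membrane proteins and are released by ADAM proteases. TGF-β is secreted bound to a latency peptide and has to be set free before it can signal through type II and type I receptors to SMAD proteins.

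Expression is given as RPKM, the reads of a gene divided by its length in kilobases and by the mapped reads of the library. RPKM in the 6 libraries summed to between 320462 and 340257, and low values placed the depth of the libraries at an estimated 18600000 to 22000000 reads. The targeted gene *Etv5* measured 9.18, 9.89 and 9.39 RPKM in control and 5.19, 4.91 and 5.28 RPKM in knockdown libraries (log2 fold change -0.78, limma adjusted p = 2.74e-07), and shares 24.5% of its 50-base stretches with other genes, mainly *Gm4798*. All 10 macrophage markers checked passed 1 RPKM in at least 3 libraries. After knockdown 4 of the 10 were higher at a limma adjusted p under 0.05 (*Adgre1* from 2.60 to 11.3 RPKM, *Itgam* from 33.8 to 127 RPKM). Another 5 were lower (*Csf1r* from 428 to 244 RPKM, *Cd68* from 365 to 246 RPKM). Of all tested genes, 33.3% were higher and 41.0% lower at the same threshold. The summed level of the 10 markers, most of it *Lyz2* (means of 2834 and 2041 RPKM), was 4844 to 4984 RPKM in control and 3824 to 3966 RPKM in knockdown libraries. Of the 23 markers of fibroblasts, endothelial, epithelial and lymphoid cells, none reached 1 RPKM in any library. In these bulk libraries, fewer cells that express a gene and less RNA per cell cannot be told apart.

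In sh-*Etv5* cells, *Pdgfb*, *Vegfa*, *Vegfc* and *Tgfb1* were higher and *Pdgfa* and *Vegfb* were lower than in sh-NC cells. These 6 genes passed the filter of 1 RPKM in at least 3 libraries and were tested by limma on log2(RPKM + 1) among 10738 genes. All of the 6 were called at an adjusted p under 0.05, in a comparison in which 74.3% of all tested genes were called, 33.3% as higher and 41.0% as lower. Control and knockdown values overlapped in none of the 6, and 76.4% of all tested genes were likewise without overlap. The changes of *Pdgfb*, *Pdgfa* and *Vegfc* exceeded 1 in size on the log2 scale. Of all 10738 tested genes, 9.23% were called and had a change above that size. The median log2 fold change was 0.49 for the 6 genes and -0.05 for all tested genes. *Vegfc* passed the filter only through the sh-*Etv5* libraries and so had to be higher. It is part of the 6 calls, of the changes above 1 in size and of the median of 0.49. These figures therefore depend in part on the filter. *Hbegf*, *Inhba*, *Areg* and *Ereg* did not pass the filter and were not tested in this fit.

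**Figure D1:**
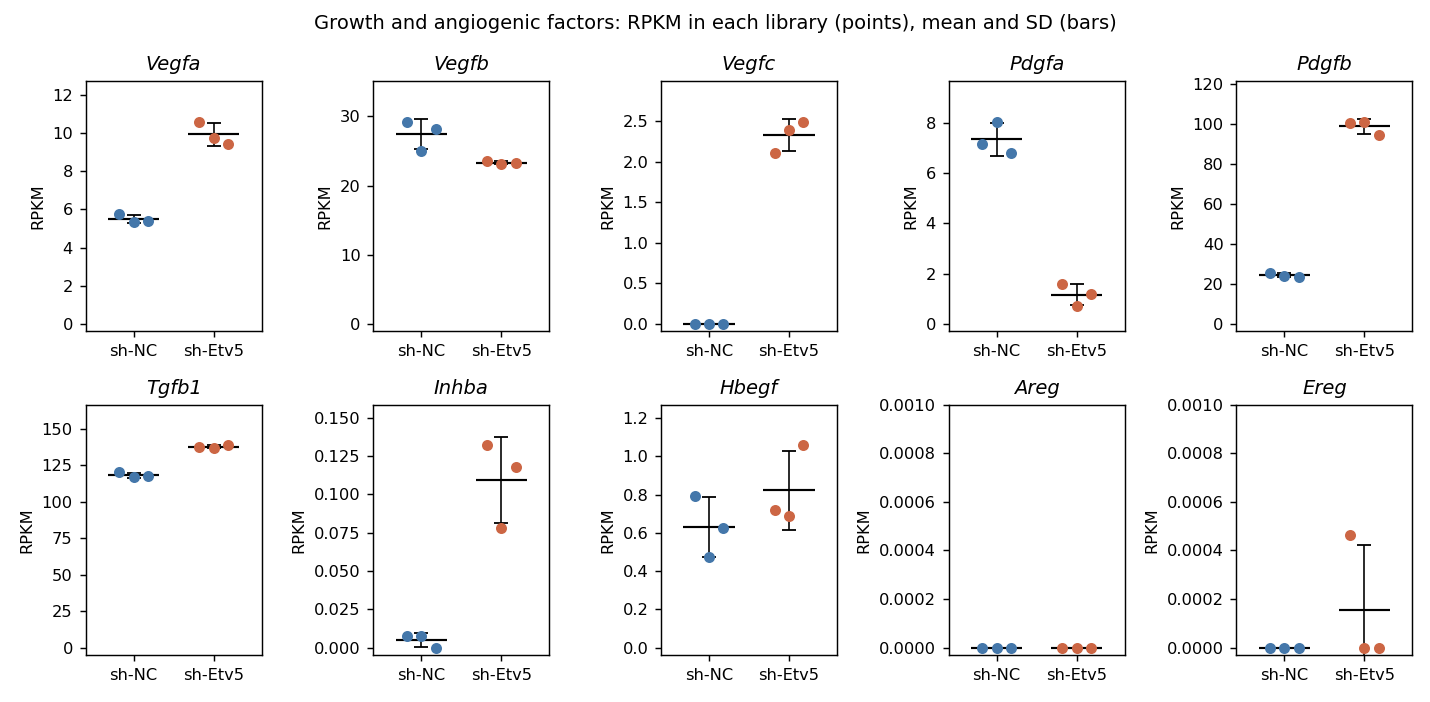
RPKM (linear axes, with a separate scale for each gene) of the 10 genes in the 3 sh-NC and 3 sh-Etv5 libraries, 1 point per library in the order of replicates 1 to 3, with the mean as a line and the SD as an error bar. The groups do not overlap for Vegfa, Vegfb, Vegfc, Pdgfa, Pdgfb, Tgfb1 and Inhba, they overlap for Hbegf, and the values of Areg and Ereg lie at or next to 0.

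The promoters of *Vegfa*, *Vegfc* and *Inhba*, 3 of the 7 that were searched, are shown as examples of genes whose sh-*Etv5* values all lay above their sh-NC values. They were chosen after the values were seen, and *Tgfb1*, which also lay above, is not shown. Each sequence is the 250 bases before the most upstream start that RefSeq lists on GRCm38.p6, read 5′ to 3′ on the strand of the gene. *Vegfa* is chr17:46032378-46032627 (minus strand), *Vegfc* chr8:54077282-54077531 (plus strand) and *Inhba* chr13:16011601-16011850 (plus strand). Capitals mark GGAA, the core of the sites that ETS factors such as ETV5 bind, or TTCC, the same core on the other strand.
Vegfa: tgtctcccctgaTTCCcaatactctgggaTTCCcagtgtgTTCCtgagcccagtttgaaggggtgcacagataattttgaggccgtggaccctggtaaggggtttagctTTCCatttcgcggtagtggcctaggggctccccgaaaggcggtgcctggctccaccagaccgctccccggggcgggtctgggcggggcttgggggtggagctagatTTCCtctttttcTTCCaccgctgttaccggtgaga
Vegfc: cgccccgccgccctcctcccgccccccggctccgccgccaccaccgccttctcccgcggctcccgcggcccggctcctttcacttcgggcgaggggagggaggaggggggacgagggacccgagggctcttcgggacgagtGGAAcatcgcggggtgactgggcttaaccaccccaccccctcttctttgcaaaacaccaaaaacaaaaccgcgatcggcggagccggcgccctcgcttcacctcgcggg
Inhba: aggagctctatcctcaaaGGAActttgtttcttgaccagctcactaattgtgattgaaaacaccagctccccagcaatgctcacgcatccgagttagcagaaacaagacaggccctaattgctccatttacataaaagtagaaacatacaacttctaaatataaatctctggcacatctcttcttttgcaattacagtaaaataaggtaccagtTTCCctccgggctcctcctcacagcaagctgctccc

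This core was found 6 times in the *Vegfa* window, 1 time in that of *Vegfc* and 2 times in that of *Inhba*. On both strands it was in 93.4% of the 32851 promoters of the same length, with a median of 3 matches, so its presence does not set these windows apart. The longer ETS site CCGGAAGT, which contains GGAA, was in 2.88% of all promoters and in 0 of the 7 windows searched (*Vegfa*, *Vegfb*, *Vegfc*, *Pdgfa*, *Areg*, *Tgfb1* and *Inhba*). The AP-1 site TGANTCA (6.75% of all promoters) and the hypoxia response core ACGTG (16.6%) were also in 0 of the 7. The cAMP response element TGACGTCA, in 1.55% of all promoters, was in the *Areg* window only, and the GC box GGGCGG, in 32.7%, was in each window but that of *Inhba*. The TATA box TATAAA, in 12.4%, was in the windows of *Areg* and *Inhba*. These matches describe the letters of the reference sequence and not binding.

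Among the VEGF genes, *Vegfa* and *Vegfc* were higher and *Vegfb* was slightly lower in sh-*Etv5* cells. *Vegfa*, located at chr17:46016993-46032369 on the minus strand of GRCm38, measured 5.74, 5.34 and 5.39 RPKM in control cells. After knockdown its values were 10.6, 9.76 and 9.41 RPKM. Each knockdown library lay above each control library. Group means were 5.49 ± 0.216 and 9.93 ± 0.612 RPKM (SD, n = 3), a rise of 1.81-fold. On the log2(RPKM + 1) scale *Vegfa* changed by 0.75 (95% confidence interval 0.62 to 0.88, limma adjusted p = 6.08e-07), more in size than 83.7% of tested genes.

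*Vegfc*, at chr8:54077606-54187096 on the plus strand, was listed at 0 in each of the 3 control libraries, whereas the knockdown libraries gave 2.11, 2.39 and 2.50 RPKM. From the length of its exons and the estimated depth, the knockdown values stand for about 98, 129 and 114 reads, and a single read would have been worth about 0.0197 RPKM. No fold was computed against 0. With a pseudocount of 1 the change on the log2 scale was 1.74 (95% interval 1.55 to 1.92, limma adjusted p = 1.06e-08), and it was 4.60 with a pseudocount of 0.1. When any 1 of the sh-*Etv5* libraries was left out, *Vegfc* no longer passed the filter. Among markers of other cells, the sums for fibroblasts and endothelial cells were higher at low levels, and those for epithelial and lymphoid cells overlapped. The epithelial sum ran from 0 to 0.0234 RPKM in sh-NC and from 0 to 0.00159 RPKM in sh-*Etv5* libraries. The lymphoid sum ran from 0.0622 to 0.223 RPKM in sh-NC and from 0.0306 to 0.367 RPKM in sh-*Etv5* libraries. The summed level of the 6 fibroblast markers ran from 0.0112 to 0.0238 RPKM in sh-NC and from 0.764 to 1.10 RPKM in sh-*Etv5* libraries. Most of the sh-*Etv5* sum was *Lum*, at 0 in each control library and at a mean of 0.797 RPKM after knockdown. *Lum*, *Dcn* and *Col1a1* (3 of 6) lay above their control values. *Col1a2* was at 0 throughout, and *Pdgfra* and *Col3a1* were at 0 in each sh-*Etv5* library. The sum of the 6 endothelial markers ran from 0.171 to 0.363 RPKM in sh-NC and from 1.12 to 1.27 RPKM in sh-*Etv5* libraries. *Pecam1*, *Cdh5* and *Kdr* (3 of 6) lay above their control values, *Tek* overlapped, and *Emcn* and *Cldn5* were at 0. Among all 14048 genes under the filter, including those at 0 in all 6 libraries, knockdown libraries lay wholly above control libraries in 8.41% and wholly below in 3.40%. The part of such other cells in the *Vegfc* result was not tested.

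*Vegfb*, whose product binds the VEGF receptor FLT1, lies at chr19:6982473-6987651 on the minus strand. Control libraries gave 29.2, 25.1 and 28.2 RPKM, and knockdown libraries 23.5, 23.2 and 23.3 RPKM. The lowest control library lay close to the knockdown libraries, whose values hardly varied. Group means were 27.5 ± 2.18 and 23.3 ± 0.175 RPKM (SD, n = 3), so *Vegfb* decreased by 15.2% (log2 fold change -0.23, 95% confidence interval -0.35 to -0.11, limma adjusted p = 0.00297). Without the filter on low values the limma adjusted p for *Vegfb* was 0.052, above the threshold. Within a library *Vegfb* was above *Vegfa* throughout, by a ratio of RPKM of 5.01 ± 0.278 in sh-NC and 2.35 ± 0.129 in sh-*Etv5* libraries (SD, n = 3). These ratios did not overlap between the groups (exact permutation test, two-sided, p = 0.1, the smallest that 3 against 3 libraries can give).

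The PDGF genes moved in opposite directions. *Pdgfb*, at chr15:79995874-80014977 on the minus strand, measured 25.3, 24.0 and 23.7 RPKM in control cells against 100.5, 101 and 94.3 RPKM after knockdown. Group means of 24.3 ± 0.895 and 98.6 ± 3.78 RPKM (SD, n = 3) gave a rise of 4.06-fold and a log2 fold change of 1.98 (95% confidence interval 1.88 to 2.07, limma adjusted p = 1.42e-11). The groups were far apart compared with the spread inside them, and *Pdgfb* ranked 163 among the 10738 tested genes by log2 fold change.

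*Pdgfa*, at chr5:138976014-138997370 on the minus strand, had control values of 7.15, 8.04 and 6.79 RPKM and knockdown values of 1.58, 0.726 and 1.18 RPKM. Each knockdown library lay below each control library, and the knockdown libraries differed among themselves by a coefficient of variation of 36.7%. Group means were 7.33 ± 0.644 and 1.16 ± 0.426 RPKM (SD, n = 3), so *Pdgfa* fell by 84.2%, with a change of -1.96 on the log2 scale (95% confidence interval -2.24 to -1.68, limma adjusted p = 9.75e-08). By log2 fold change it ranked 34 from the lowest of the tested genes. Exons of the gene *6330403L08Rik* on the opposite strand overlap 26.1% of the exonic bases of *Pdgfa*, and no source used here states whether strand was used in counting, so reads of the overlap cannot be told apart.

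The ratio of *Pdgfb* to *Pdgfa* RPKM was 3.54, 2.98 and 3.48 in control and 63.7, 139 and 79.9 in knockdown libraries. Its mean went from 3.33 ± 0.310 to 94.2 ± 39.8 (SD, n = 3), without overlap of the groups (exact permutation test of the log2 ratio, two-sided, p = 0.1, the smallest possible). The highest ratio was that of sh-*Etv5* replicate 2, the library with the lowest *Pdgfa* value. The receptors of these ligands measured no more than 0.0112 RPKM for *Pdgfra* and 0.0746 RPKM for *Pdgfrb* in any library.

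**Figure D2:**
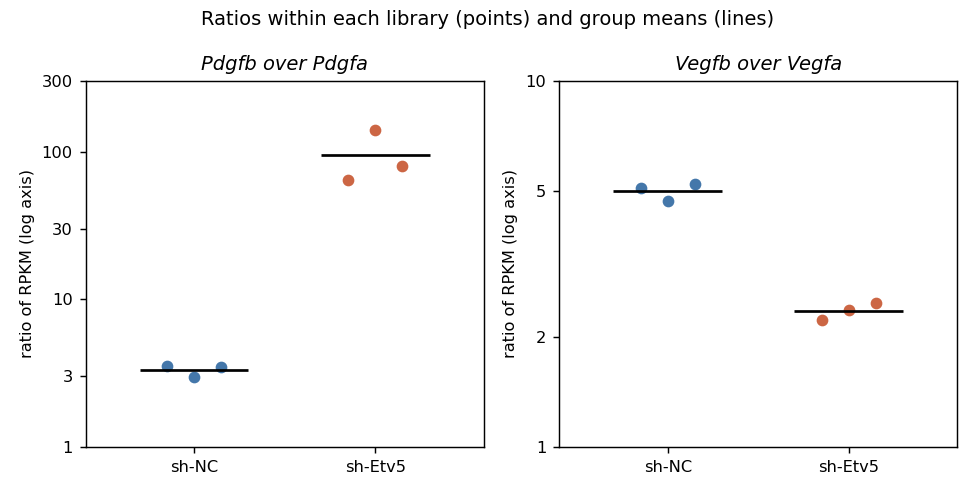
Ratio of Pdgfb to Pdgfa RPKM (left) and of Vegfb to Vegfa RPKM (right) within each library, on log axes, with 1 point per library and the group mean as a line. The PDGF ratio lies between 2.98 and 3.54 in sh-NC and between 63.7 and 139 in sh-Etv5 libraries, and the VEGF ratio is lower in each sh-Etv5 library than in each sh-NC library.

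Of the TGF-β superfamily ligands, *Tgfb1* was abundant in both groups and slightly higher after knockdown, and *Inhba* was close to 0. *Tgfb1*, at chr7:25687002-25705077 on the plus strand, measured 120.1, 117 and 117 RPKM in control cells against 137, 137 and 139 RPKM in knockdown cells. Group means of 118 ± 1.84 and 138 ± 0.878 RPKM (SD, n = 3) differed by 16.6%, a log2 fold change of 0.22 (95% confidence interval 0.15 to 0.29, limma adjusted p = 5.88e-05). The groups did not overlap, and 37.2% of tested genes had a smaller change in size.

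*Inhba*, which encodes the βA chain of activin A, lies at chr13:16011851-16031621 on the plus strand. Control values were 0.00757, 0.00758 and 0 RPKM, and knockdown values 0.132, 0.0781 and 0.118 RPKM. These values stand for an estimated 1, 1 and 0 reads in the controls and 16, 11 and 14 reads in the knockdown libraries. The groups did not overlap, but all libraries were below the filter of 1 RPKM. Among the 14048 genes under the filter, knockdown libraries lay wholly above control libraries in 8.41% and wholly below in 3.40%. These shares include genes at 0 in all 6 libraries, which cannot separate. With no filter the *Inhba* log2 fold change was 0.14 (limma adjusted p = 0.00622), in a fit that called 30.9% of all genes.

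The EGF receptor ligands were low in both groups, and their values overlapped between the groups. *Hbegf*, at chr18:36504927-36515805 on the minus strand, gave 0.790, 0.473 and 0.626 RPKM in control cells and 0.721, 0.686 and 1.06 RPKM in knockdown cells. The groups overlapped, with means of 0.630 ± 0.159 and 0.822 ± 0.206 RPKM (SD, n = 3), and with no filter the limma adjusted p was 0.472. An estimated 47.3 to 95 reads per library stand behind these values. *Areg*, at chr5:91139599-91148432 on the plus strand, was listed at 0 in all 6 libraries, where a single read would have been worth about 0.0397 RPKM. *Ereg*, which ends 45953 bases before the start of *Areg* on the same strand (chr5:91074622-91093646), was listed at 0 RPKM in 5 libraries. In sh-*Etv5* replicate 1 it was at 0.000466 RPKM, less than a single read is worth (about 0.0117 RPKM). Expression of *Areg* and *Ereg* was thus not detectable at this depth in either group.

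Compared per length within sh-NC cells, the order of mean RPKM was *Tgfb1* (118), *Vegfb* (27.5), *Pdgfb* (24.3), *Pdgfa* (7.33), *Vegfa* (5.49), *Hbegf* (0.630) and *Inhba* (0.00505), followed by *Vegfc*, *Areg* and *Ereg* at 0. Neighbors in this order did not overlap between libraries except for *Vegfb* with *Pdgfb*, and *Inhba* with the genes at 0. In sh-*Etv5* cells the order was *Tgfb1* (138), *Pdgfb* (98.6), *Vegfb* (23.3), *Vegfa* (9.93), *Vegfc* (2.33), *Pdgfa* (1.16), *Hbegf* (0.822), *Inhba* (0.109), *Ereg* and *Areg*, and the ranges overlapped for *Pdgfa* with *Hbegf* and for *Ereg* with *Areg*. *Pdgfb* thus stood next to *Tgfb1* after knockdown, and *Pdgfa* moved from above *Vegfa* to below *Vegfc*.

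**Figure D3:**
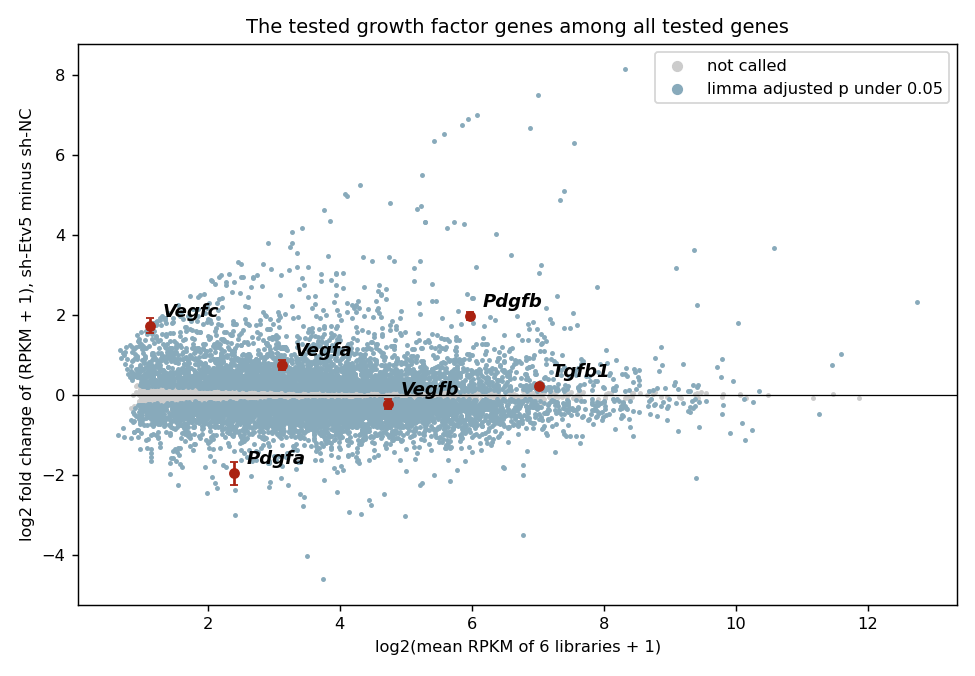
Log2 fold change of (RPKM + 1), sh-Etv5 minus sh-NC, against log2 of (mean RPKM + 1) for the 10738 tested genes, with genes called at a limma adjusted p under 0.05 in blue-gray and the others in light gray. The 6 tested growth factor genes are in red with 95% confidence intervals, and range from -1.96 for Pdgfa to 1.98 for Pdgfb.

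The tested gene nearest to each factor over the 6 libraries was found by the Euclidean distance of log2(RPKM + 1), which reads both level and change. *Herpud1*, which encodes an ER stress protein, was nearest to *Pdgfb* (distance 0.131) with means of 23.9 RPKM in sh-NC and 100 RPKM in sh-*Etv5* cells. *Scg2* was nearest to *Vegfc* (0.123), listed at 0 in sh-NC and at a mean of 2.41 RPKM in sh-*Etv5* cells. *Mfsd11* was nearest to *Vegfa* (0.155), *Polr1c* to *Vegfb* (0.106) and *Capzb* to *Tgfb1* (0.0933). *Tmem51* was nearest to *Pdgfa* at a larger distance of 0.485, with means of 6.53 and 1.17 RPKM. Opposite-strand or neighboring exons overlap 13.0% of the exonic bases of *Tmem51* and 7.7% of those of *Mfsd11*.

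Genes that act with these factors were read from 5 lists, whose counts stand beside the 33.3% higher, 41.0% lower and 74.3% called among all tested genes and the median log2 fold change of -0.05. Of 20 receptors and co-receptors, 9 were tested, 4 were higher and 4 lower, with a median log2 fold change of -0.15. The TGF-β receptors fell, *Tgfbr2* from 49.9 ± 1.45 to 26.6 ± 0.749 RPKM (SD, n = 3, log2 fold change -0.88, limma adjusted p = 5.51e-09) and *Tgfbr1* from 4.97 to 2.69 RPKM (-0.70, limma adjusted p = 8.39e-05). *Acvrl1*, a type I receptor for BMP9 and BMP10, rose from 1.89 to 7.17 RPKM (log2 fold change 1.5), and *Acvr1b*, a type I receptor for activins, rose from 4.10 to 7.15 RPKM (0.68). The VEGF co-receptors *Nrp2* and *Nrp1* were both lower. *Nrp2* went from 69.2 to 57.1 RPKM (limma adjusted p = 0.000178) and *Nrp1* from 6.65 to 4.61 RPKM (limma adjusted p = 5.9e-05). *Erbb3*, of the EGF receptor family, had means of 3.85 and 3.39 RPKM and was not called (limma adjusted p = 0.0714). Among the 11 receptors under the filter were *Egfr*, at no more than 0.0185 RPKM in any library, and the VEGF receptors *Kdr* and *Flt4*, at no more than 0.0385 and 0.0316 RPKM. *Flt1*, the receptor of VEGF-B, was also under the filter, at 0.197 to 0.240 RPKM in control and 0.215 to 0.470 RPKM in knockdown libraries, with overlap.

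Of 22 genes for shedding, processing and latency, 10 were tested, 6 were higher and 3 lower (median log2 fold change 0.29). *Furin*, the protease that cleaves pro-TGF-β, pro-VEGF-C and PDGF precursors, rose from 11.5 ± 0.268 to 40.8 ± 1.86 RPKM (SD, n = 3, log2 fold change 1.74, limma adjusted p = 7.88e-11). The iRhom genes *Rhbdf2* and *Rhbdf1*, partners of the sheddase ADAM17, rose with log2 fold changes of 1.17 and 1.22, *Rhbdf1* having passed the filter only through sh-*Etv5* libraries. *Adam17* itself fell from 49.6 to 33.2 RPKM (log2 fold change -0.57, limma adjusted p = 6.15e-08). Of the other ADAM genes in the list, *Adam10* also fell (log2 fold change -0.69), and *Adam8* and *Adam9* rose (1.01 and 0.33). *Nrros*, which holds latent TGF-β on the surface of myeloid cells, fell from 54.5 to 26.5 RPKM (log2 fold change -1.01, limma adjusted p = 2.52e-09).

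Of 16 inhibitors, 8 were tested, 4 were higher and 3 lower (median log2 fold change 0.12). *Spry2* and *Smad7*, counted among the 4, passed the filter only through sh-*Etv5* libraries and so had to be higher. *Errfi1*, an inhibitor of EGF receptor kinases, rose from 1.84 to 3.85 RPKM (log2 fold change 0.77), and *Spry2*, an inhibitor of receptor tyrosine kinase signaling, from 0.736 to 1.83 RPKM (0.71). *Smad6* fell from 2.33 to 0.972 RPKM (-0.75) and *Ski*, a repressor of SMAD-driven transcription, from 21.6 to 14.6 RPKM (-0.54). The follistatin gene *Fst* and *Inha* did not pass the filter.

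Of 15 SMAD genes and genes that respond to TGF-β, 10 were tested, 3 were higher and 4 lower (median log2 fold change 0). *Tgif1*, a SMAD corepressor, rose from 10.4 ± 0.251 to 21.5 ± 0.772 RPKM (SD, n = 3, log2 fold change 0.98, limma adjusted p = 8.02e-09), and *Smad1*, a SMAD protein of the BMP branch, rose from 4.71 to 7.96 RPKM (0.65). *Klf10* fell from 7.90 to 3.77 RPKM (-0.90) and *Id3* from 53.4 to 29.4 RPKM (-0.84). Of 20 related ligands, 3 were tested. *Osm*, an IL-6 family cytokine, rose from 2.78 ± 0.409 to 19.8 ± 1.15 RPKM (SD, n = 3, log2 fold change 2.47, limma adjusted p = 4.17e-10), *Grn*, the gene of progranulin, rose from 247 to 397 RPKM (0.68), and *Angpt2*, the angiopoietin that antagonizes TIE2, fell from 1.52 to 0.932 RPKM (-0.38, limma adjusted p = 0.00171). Opposite-strand exons overlap 3.0% of the exonic bases of *Acvrl1*, 2.0% of *Grn* and 1.3% of *Furin*.

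**Figure D4:**
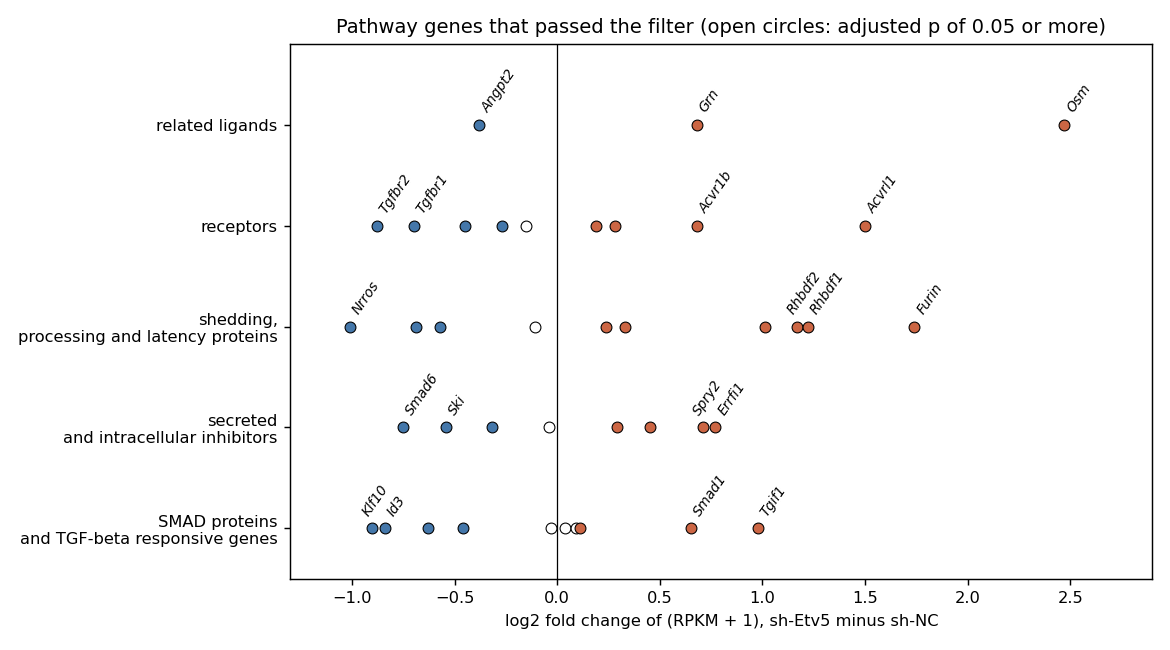
Log2 fold change of (RPKM + 1), sh-Etv5 minus sh-NC, of the tested genes in the 5 pathway lists, 1 circle per gene, filled where the limma adjusted p was under 0.05 (orange higher, blue lower) and open otherwise, with the 4 largest called changes of each list named (3 in the related ligands). Values range from -1.01 for Nrros to 2.47 for Osm, and each list holds called genes in both directions.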

How the data were processed

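PolyA RNA of 3 sh-NC and 3 sh-*Etv5* libraries was measured, and sample titles gave the group and replicate number of each. The authors deposited RPKM values without log transformation, 1 per gene symbol and library, made from coverage tracks. The submitters' processing notes name mm10, and the aligner, annotation and strand setting are not given in the sources used here. RPKM carry scaling by gene length and by total mapped reads, so strongly expressed genes that change can shift the others.

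Tested genes reached 1 RPKM in 3 or more libraries. The groups were compared on log2(RPKM + 1) with limma (version 3.58.1, R 4.3.3), which the study's methods also name, using moderated variances with a trend on the mean level, two-sided and without covariates. A gene was called where its p-value after Benjamini-Hochberg adjustment was under 0.05. The fit was also run on simulated data in which few genes changed, unlike here, so that run does not bear on the calls above. Low values between libraries clustered at common ratios, and the smallest of them times the exonic length clustered at 48.3 RPKM × bases. Of the 2908 low genes used, 230 lay at this step. This was taken as the value of 1 read and gives the estimated depth and reads, while many other low values were no multiple of it. These estimates rest on GENCODE exon lengths and are not counts, so no count model or counting interval was used.

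Symbols were matched to GENCODE M21 on GRCm38 (24255 of 24786). Overlapping exons, 50-base sequences and motifs were searched with Python 3.11.15 and pandas 2.3.3. Promoters from RefSeq (GRCm38.p6) were searched for 7 of the 10 genes. *Pdgfb* and *Ereg* had no entry among the promoters used here, and *Hbegf* was left out of the search.

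The members and lists were chosen with earlier results of these data known. The naming rule covers the 10 genes, *Etv5*, the 4 called genes with the largest change of each of the 5 pathway lists, and the nearest gene of each tested member. A gene of the SMAD and TGF-β list is not reported here and was taken out of its counts. *Adam8*, *Adam9*, *Adam10*, *Adam17*, *Fst*, *Inha*, *Smad7*, *Nrp1*, *Nrp2* and *Erbb3* were named after their values were seen. So were the receptors under the filter, the marker genes and the low ligands of the closing section. Alternatives were a pseudocount of 0.1, a filter on a mean of 5 RPKM or none, quantile normalization or rescaling of the libraries to one sum, no variance trend, a replicate block and leaving out each library.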

Additional observations from a re-analysis of the deposited data

How the results depend on the processing

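Each tested growth factor gene kept its direction under all the alternatives that tested it, and *Vegfb* without the filter (limma adjusted p = 0.052) was the only call lost. The growth factor genes called higher stayed at 3 to 5 and those called lower at 1 to 2. Of the 10, 6 were tested in the fit above, 4 with a mean RPKM of at least 5 and 10 without the filter. Only 1 gene was lower without the filter, and only 1 with a mean RPKM of at least 5, where *Pdgfa* and *Vegfc* were not tested. Over the 5 lists, 19 genes were higher, 12 with a mean RPKM of at least 5 and 26 without the filter. Leaving out each library in turn moved the log2 fold change of *Vegfb* between -0.29 and -0.18 and that of *Pdgfa* between -2.10 and -1.81. With a pseudocount of 0.1 the log2 fold change was -2.61 for *Pdgfa* and 2.02 for *Pdgfb*. Rescaling to the same sum moved the median of all tested genes by -0.05, with 3124 genes higher and 4922 lower against 3575 and 4399. With the replicate block, 3539 genes were higher and 4361 lower, 4 of the growth factor genes higher and 2 lower. The replicate numbers are shared between groups in the labels, and no source used here states whether same-numbered libraries were prepared together. Deviations of same-numbered libraries correlated at 0.0739, -0.071 and -0.0352, and 1 of 3 libraries matched best with its own number. With 3 libraries per group these values cannot settle whether the libraries are paired. Depth limits *Inhba*, *Areg* and *Ereg*, for which 1 read weighs between 0.00756 and 0.0397 RPKM.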

Other observations

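Further growth factor genes lay below the filter of 1 RPKM in these cells. Of the 20 related ligands, 17 did so, and 5 of them (*Vegfd*, *Tgfa*, *Btc*, *Fgf2* and *Angpt1*) were listed at 0 in all 6 libraries. In 4 of the 17 the sh-*Etv5* libraries lay above the sh-NC libraries and in 1 below. Among all 14048 genes under the filter these shares were 8.41% and 3.40%. The 14048 include genes at 0 in all 6 libraries, which cannot separate. With no filter, limma called 30.9% of all genes at an adjusted p under 0.05. *Gdf15*, a stress-induced TGF-β superfamily ligand, measured 0.0392, 0.000953 and 0.0430 RPKM in control against 0.327, 0.202 and 0.440 RPKM in knockdown libraries (limma adjusted p = 0.0206 with no filter). *Pdgfc*, a further PDGF gene, measured 0, 0.0135 and 0 RPKM against 0.0834, 0.101 and 0.0901 RPKM (limma adjusted p = 0.000735 with no filter). The values of *Tgfb2* (limma adjusted p = 0.0264 with no filter) and *Epgn* (0.0836) were lower still, at no more than 0.0347 and 0.0798 RPKM. *Igf1*, insulin-like growth factor, was the 1 ligand whose knockdown libraries lay below the controls, with means of 0.516 ± 0.0637 RPKM without and 0.332 ± 0.0567 RPKM with knockdown (SD, n = 3, limma adjusted p = 0.0421 with no filter).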
